A study of Mus musculus with 12 samples.

Results

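The late response to bile duct ligation was read as the ratio of 2 group means for every gene, BDL day 14 over day 0, in sorted GFP(+) liver cells. Genes were members where their arithmetic mean over all libraries was at least 1 normalized count, which 12891 of the 16971 genes in the table met. A ratio of the mean at BDL day 14 to the mean at day 0 was taken for each of them and is given on the log2 scale, so that 1 stands for a 2-fold higher and -1 for a 2-fold lower mean.

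GFP(+) cells were sorted by FACS, as cells negative for propidium iodide, from the nonparenchymal fraction of the livers of adult C57BL/6 mice of the genotype Prom1CreERT2-nLacZ/+;Rosa26Lsl-GFP/+. All groups carried both alleles and had tamoxifen before surgery. By this design, GFP is meant to mark cells in which the Prom1 promoter drove the recombinase, and their descendants, in every group. The day 0 mean (labelled sham, and described by the study as before ligation) rests on 3 libraries and the BDL day 14 mean on 4 of the 6 libraries that the labels list. A group from BDL day 3, of 3 libraries, is in the same table. Mice of both sexes were used, and the sexes were not balanced between the groups. The table holds 1 mean per group and no column for a library, so no test across libraries could be run and no p-value is given for any gene. The spread between libraries was instead recovered from the gap between the arithmetic and the geometric mean over the 10 libraries, as 1 standard deviation on the log2 scale shared by the 3 groups. The error after each log2 ratio is the standard error that this spread gives for 3 against 4 libraries. It assumes log-normal values with the same spread in each group, and a ratio over 2 standard errors is a description and not a test. The study reports that variability grew with the duration of injury, so equal spread may not hold. A gene carried by 1 library can also pass 2 standard errors, as Saa2 did with 99.9% of its day 0 sum in 1 library.

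Ligation of the common bile duct blocks the outflow of bile, after which ducts proliferate, hepatocytes are injured and the portal tracts scar. Prom1 encodes prominin-1, a membrane glycoprotein of cholangiocytes and of hepatic progenitor cells. Resident Kupffer cells of the sinusoids take up red cells, lipoproteins and debris, and carry Clec4f, Timd4, Vsig4 and Marco. Injured liver also recruits blood monocytes that become macrophages, among them a lipid-associated form with Trem2, Gpnmb, Cd9, Spp1 and Fabp5 that gathers at scars. Macrophages degrade what they engulf in lysosomes, whose acid interior is made by the V-ATPase and whose cholesterol is released by Lipa, Npc1 and Npc2.

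Promoters of 9 named genes, 3 higher and 6 lower, are shown to make plain which short motifs stand near the start sites of gene groups described after them. They were read from RefSeq windows of 300 bases on GRCm38.p6 (250 before the start and 50 from it on), written on the strand of the gene with the searched motif in capitals. CACGTGAC is the core of the CLEAR element of lysosomal genes, GTTAATNAT a site of the hepatocyte factor HNF1, GAAANNGAA the core of the interferon-stimulated response element, GAANNTTC a pair of heat shock units and TGAGTCA the AP-1 site. Each was searched on both strands, and a match is a string of letters and not a shown binding site.
Gla, chrX:134601154-134601241, minus strand, CLEAR: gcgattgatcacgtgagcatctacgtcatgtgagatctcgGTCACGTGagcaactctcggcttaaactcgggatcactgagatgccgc
Ctsd, chr7:142388025-142388077, minus strand, CLEAR: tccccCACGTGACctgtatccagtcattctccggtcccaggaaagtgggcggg
Gpnmb, chr6:49036486-49036567, plus strand, AP-1: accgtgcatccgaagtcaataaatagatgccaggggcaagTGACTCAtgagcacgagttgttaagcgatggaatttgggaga
Alb, chr5:90460798-90460886, plus strand, HNF1: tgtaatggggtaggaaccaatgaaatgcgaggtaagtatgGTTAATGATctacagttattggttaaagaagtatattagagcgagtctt
G6pc, chr11:101367466-101367543, plus strand, HNF1: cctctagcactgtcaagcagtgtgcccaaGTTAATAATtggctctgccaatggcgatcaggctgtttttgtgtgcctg
Ifi44, chr3:151749865-151749953, minus strand, interferon element: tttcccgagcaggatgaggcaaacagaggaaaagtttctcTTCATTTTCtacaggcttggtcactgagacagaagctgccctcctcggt
Isg15, chr4:156200848-156200936, minus strand, interferon element: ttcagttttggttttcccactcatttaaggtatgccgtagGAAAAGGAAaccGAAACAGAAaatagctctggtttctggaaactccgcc
Hspa1a, chr17:34972213-34972300, minus strand, heat shock element: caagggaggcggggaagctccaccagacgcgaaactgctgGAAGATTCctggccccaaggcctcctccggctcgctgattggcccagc
Hspa1b, chr17:34959295-34959382, minus strand, heat shock element: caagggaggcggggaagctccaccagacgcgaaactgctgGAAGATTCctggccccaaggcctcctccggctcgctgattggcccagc

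Gpnmb, Gla and Ctsd are among the genes higher at BDL day 14, and the other 6 among those lower. The windows of Hspa1a and Hspa1b hold the same 88 letters. Promoters were matched for 36 of 42 genes of the lysosomal list, and 8 of them (22.2%) held the CLEAR letters, against 4.31% of the 9842 members with a promoter and 2.33% of all 27025 RefSeq promoters. The HNF1 letters stood in 3 of 22 matched hepatocyte promoters (13.6%), against 0.539% of members and 0.836% of all promoters. The heat shock letters stood in 7 of 22 matched promoters of the heat shock and immediate early list (31.8%), against 5.74% and 7.95%. The interferon letters stood in 15 of the 20 promoters matched for the interferon-stimulated list, against 7.59% of members and 8.57% of all promoters. Because only 66.7% of that list had a promoter, its share is void as a measure of the list. CLEAR is named above as an element of lysosomal genes, so its share there describes that list and not the response to ligation. The same holds for the other motifs and their lists. The AP-1 letters stood in 3.71% of members and 5.17% of all promoters. Promoters were matched for 70.7% of the genes past 2-fold higher and 73.5% of those past 2-fold lower, which is too few to compare the letters of these 2 groups.

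Past 2-fold, 1259 genes (9.77% of members) were higher at BDL day 14 and 2522 (19.6%) were lower, in all 29.3%. The counts given for each gene list below stand beside these shares. With the added condition of 2 standard errors, 894 (6.94%) were higher and 1718 (13.3%) lower. The lower genes outnumbered the higher more at larger folds: 260 genes were past 4-fold higher and 1192 past 4-fold lower, and 38 against 274 were past 16-fold. Past 64-fold, Gpnmb alone was higher and 44 genes were lower, of which 37 lay at the floor of the table on BDL day 14. The floor was set at 4 times the lowest mean of a group (0.512 normalized counts at day 0 and 0.244 at BDL day 14), and a fold against it is given as a lower bound. Of the genes past 2-fold, 66.7% were lower, and this share was 50.6% after quantile normalization of the group means (1933 higher, 1983 lower) and 52.4% among genes with a mean of at least 10. Scaling BDL day 14 by the median ratio of genes with a mean of at least 10 moved every log2 ratio by -0.126. It left 1005 genes higher and 2806 lower, with a median over all members of -0.164 in place of -0.038.

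**Figure D1:**
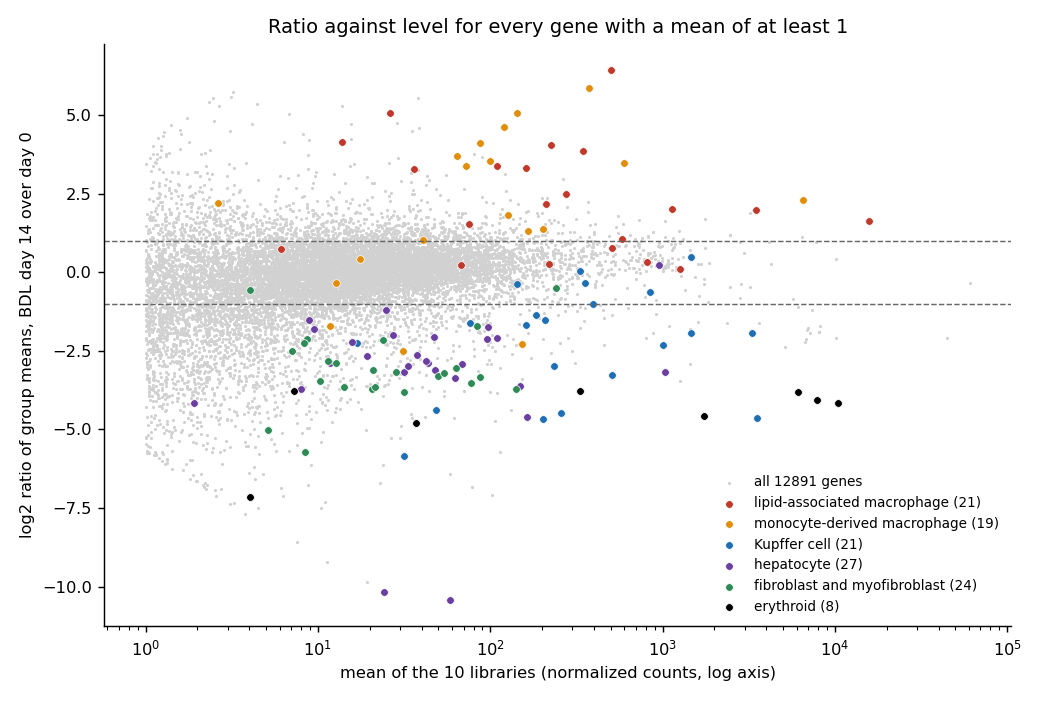
Each point is 1 of the 12891 genes, with its mean over the 10 libraries in normalized counts (log axis) against its log2 ratio of group means, BDL day 14 over day 0, and dashed lines at 2-fold either way. The lipid-associated list (red) lies above 0 for 21 of 21 members, while the erythroid list (black) lies at -3.77 or lower for all 8.

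The split differed with the level of the genes. Among the 2273 genes with a mean from 1 to 3, 13.9% were past 2-fold higher and 43.7% past 2-fold lower. Among the 2385 genes from 30 to 100 these shares were 10.1% and 9.06%, and among the 810 from 100 to 1000 they were 14.0% and 8.52%. The 92 genes of 1000 or more, which include the mitochondrial and globin transcripts, had 16.3% higher and 31.5% lower. The median standard deviation was 1.46 in the lowest class, 0.383 in both the 30 to 100 and the 100 to 1000 class and 0.471 in the class of 1000 or more.

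**Figure D2:**
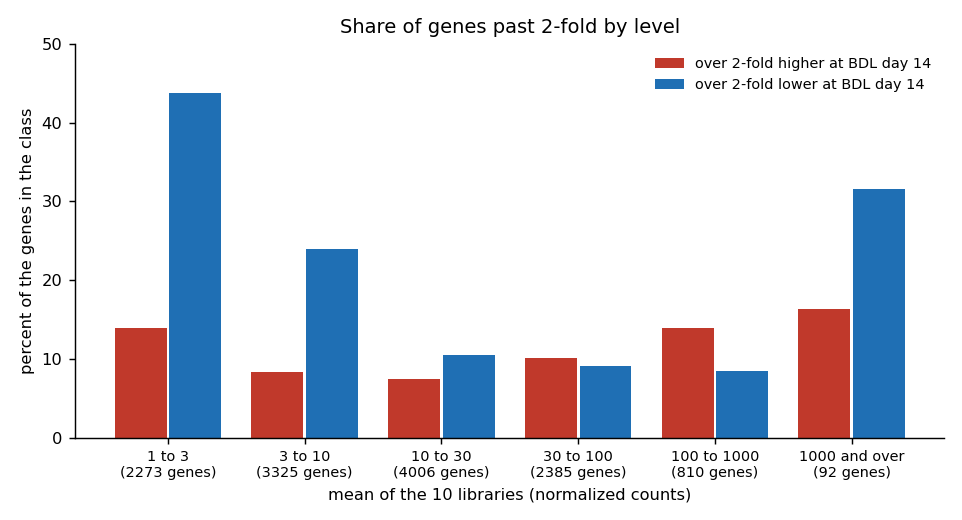
Bars give the percent of genes past 2-fold higher (red) and lower (blue) at BDL day 14 in 6 classes of the mean over the 10 libraries, in normalized counts. The lower share is 43.7% in the class from 1 to 3 and 9.06% in the class from 30 to 100.

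In the sorted cells, macrophage transcripts such as Cd68 and Csf1r stood far above biliary and progenitor transcripts such as Prom1 and Krt19. Levels are compared here as normalized counts per kb of exon, with the exons of all transcripts of a gene merged. Prom1 itself stood at 0.928 per kb on day 0 and 0.245 on day 14, Sox9 at 1.03 and 0.206, Epcam at 5.88 and 3.50 and Krt19, a keratin of bile ducts, at 11.6 and 7.71. The macrophage genes Cd68 and Csf1r, by contrast, stood at 404 and 236 per kb on day 0 and at 514 and 213 on day 14. Other genes of the general macrophage list were low by this measure: Itgam (8.84), Ptprc (8.08) and Lyz1 (3.60) lay below Krt19 on day 0. Of these, Ptprc (6.50) lay below it on day 14 as well. Ptprc had 148 normalized counts on day 0 over 18.3 kb of merged exon, so its place depends on the length used. The exceptions among the biliary list were Spp1, which bile duct cells and lipid-associated macrophages both express, at 279 and 481 per kb, and Aqp1, a water channel of bile ducts and also of endothelium, at 139.7 and 272 per kb. The highest protein-coding genes per kb on day 14 after mt-Co1 (12104) were Apoe (10524), Lyz2 (8511) and Ftl1 (6746), and the order on day 0 was mt-Co1 (51521), Hbb-bs (38672) and Hba-a2 (32984). In bulk samples, fewer cells of a type and less RNA per cell cannot be told apart. Which cells the macrophage and globin transcripts came from was not tested.

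Of 18 biliary and progenitor genes tested, 7 were past 2-fold lower and 1 higher (4 and 0 over 2 standard errors), with a median log2 ratio of -0.69 against -0.04 over all members. Prom1 went from 6.66 to 1.76 normalized counts (-1.92 ± 0.96), just over 2 standard errors, and Sox9 from 4.26 to 0.853 (-2.32 ± 1.52), within them. Krt19 (21.5 to 14.3, -0.59 ± 0.51), Epcam (12.9 to 7.69, -0.75 ± 0.65), Krt7 (10.9 to 10.7) and Krt8 (57.2 to 60.9) stayed inside the 2-fold lines. The tight junction gene Cldn4 was the member past 2-fold higher (2.21 to 6.20, 1.49 ± 0.77). Prom1, Sox9 and Cldn4 had means under 10 in both groups. Over all members, genes of low level were more often past 2-fold lower than higher. The median was -0.74 among all genes with a mean from 1 to 3 (43.7% past 2-fold lower). From 3 to 10 it was -0.25 (23.9%). How far the level of its genes sets the median of this list was not tested.

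**Figure D3:**
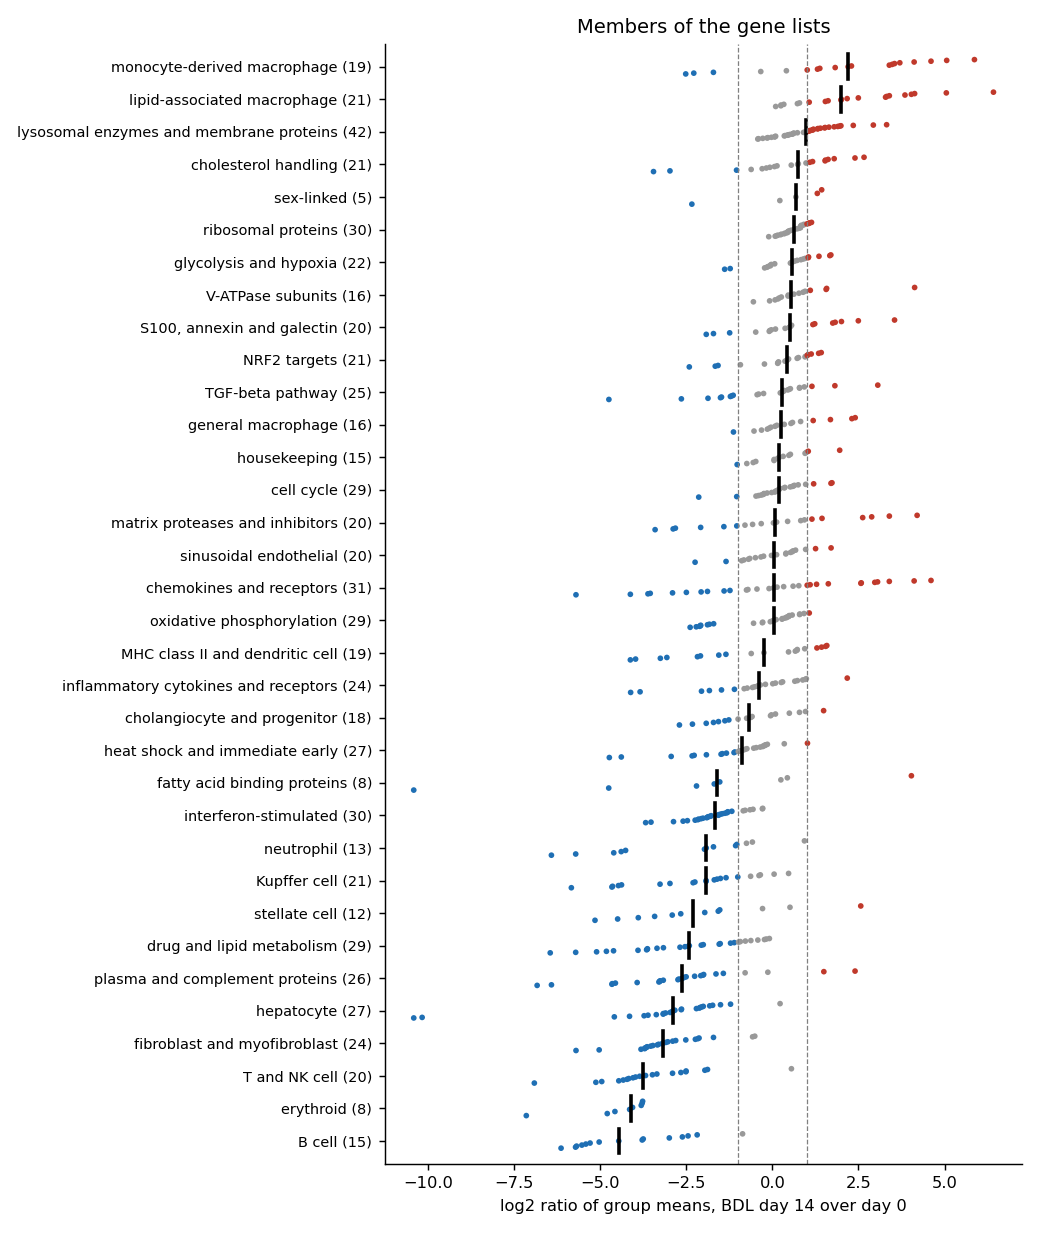
Each row is 1 of 34 gene lists, with the number of members tested in brackets, sorted by the median (black bar) of the log2 ratio of group means, BDL day 14 over day 0. Points are members, red past 2-fold higher and blue past 2-fold lower. Medians run from 2.20 for monocyte-derived macrophage genes to -4.46 for B cell genes.

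Genes of lipid-associated macrophages were higher as a group: 15 of 21 were past 2-fold, none was lower, and the list's median log2 ratio was 2.01. Gpnmb (chr6:49036546-49070929), a membrane glycoprotein of lysosomes, had the highest ratio of all named genes. Its group mean was 13.2 on day 0, 164 on BDL day 3 and 1130 on BDL day 14 (6.42 ± 0.81), and its highest library, of BDL day 14, held 2000. Trem2, the lipid receptor that defines these cells, went from 42.5 to 613 (3.85 ± 0.29). Fabp5, a carrier of fatty acids, went from 30.1 to 494 (4.04 ± 0.37) and Cd63, a tetraspanin of late endosomes, from 33.9 to 338 (3.32 ± 0.20). Atp6v0d2, a V-ATPase subunit of specialised macrophages, went from 1.53 to 26.8 (4.13 ± 0.94), Syngr1 from 1.84 to 61.0 (5.05 ± 0.68) and Itgax, the integrin CD11c, from 6.71 to 65.5 (3.29 ± 0.84). Mmp12, macrophage elastase, was highest on BDL day 3, at 264, between 6.62 on day 0 and 69.7 on BDL day 14. The members inside the 2-fold lines were Tyrobp (1010 to 1080), Lpl (540 to 680), Plin2 (174 to 207), Fabp4 (80.7 to 95.8), Ctsk (5.49 to 9.09) and Spp1 (459 to 792, 0.79 ± 0.34). Summed over the list, the means took 1.28% of all normalized counts on day 0 and 4.89% on BDL day 14.

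Monocyte-derived macrophage genes had the highest median of all lists, 2.20, with 14 of 19 past 2-fold higher and 3 lower. Chil3, a chitinase-like protein of alternatively activated macrophages, went from 14.7 to 858 (5.87 ± 0.51). F13a1, the A subunit of factor XIII, went from 10.0 to 334 (5.06 ± 0.46), and Cx3cr1, the fractalkine receptor, from 11.7 to 285 (4.61 ± 0.46). The chemokine receptors Ccr1 (11.3 to 196, 4.12 ± 0.57) and Ccr2 (15.3 to 161, 3.40 ± 1.01) were higher as well. The highest library of both lay in BDL day 14, and leaving it out gave 3.43 and 2.21. Lyz2, lysozyme, had the second largest gain of all genes in normalized counts, from 2280 to 11200 (2.30 ± 0.37). The 3 lower members included Plac8 (228 to 46.9, -2.28 ± 0.32) and Ly6c2 (21.9 to 6.69, -1.71 ± 1.42). For Ly6c2, 74.4% of the day 0 sum came from 1 library, and without it the log2 ratio was -0.33, inside the 2-fold line.

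Kupffer cell genes were lower: 16 of 21 were past 2-fold lower, none was higher, and the median was -1.92. Clec4f, a lectin that Kupffer cells alone express in the liver, had means of 4610 on day 0, 6890 on BDL day 3 and 185 on BDL day 14 (-4.64 ± 0.34). Timd4, a receptor for phosphatidylserine, went from 268 through 579 to 12.1 (-4.47 ± 0.59), and the scavenger receptor Marco from 694 through 3920 to 183 (-1.92 ± 0.51). Nr1h3, which encodes the nuclear receptor LXR alpha that Kupffer cell identity needs, went from 274 to 34.9 (-2.97 ± 0.52). Vsig4 (1020 to 207), Folr2 (602 to 62.8) and Cd5l (2620 to 691) were lower by 2.30, 3.26 and 1.92 on the log2 scale. The members inside the 2-fold lines were Slc40a1, Cd207, Il18bp, Slc11a1 and Hmox1, and those with a ratio above 0 were Slc11a1 (251 to 260) and Hmox1 (606 to 840, 0.47 ± 0.36). The 16 genes of the general macrophage list had a median near 0, of 0.24, with 4 past 2-fold higher and 1 lower. Csf1r went from 1360 to 1230 (-0.14 ± 0.37), Spi1, the macrophage factor PU.1, from 200 to 188 and Adgre1, the antigen F4/80, from 252 to 378. Itgam, the integrin CD11b, was past 2-fold higher (44.4 to 220, 2.31 ± 0.60) and so was Mpeg1, a pore-forming protein (752 to 2420, 1.69 ± 0.18).

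**Figure D4:**
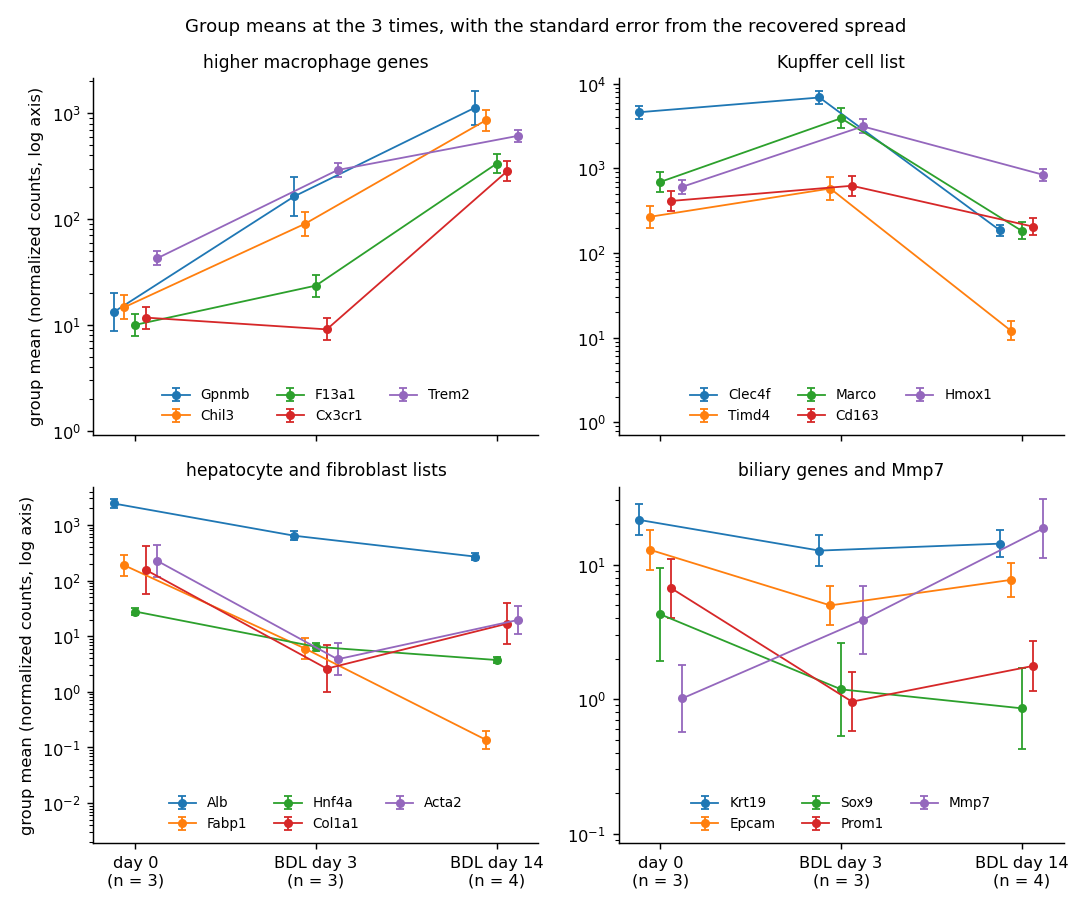
Group means on day 0 and on days 3 and 14 of BDL, in normalized counts (log axis) for 20 genes in 4 panels, each with a bar of 1 standard error from the recovered spread. Gpnmb goes from 13.2 to 1130, Clec4f is at 6890 on BDL day 3 and 185 on BDL day 14, and Fabp1 ends at 0.138, which is at the floor.

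Antigen presentation genes and dendritic cell genes both went either way. In all, 4 of 19 were past 2-fold higher and 8 lower, with a median of -0.24, which was 0.71 among genes with a mean of at least 10. The MHC class II chains H2-Aa (575 to 1410, 1.29 ± 0.59), H2-Ab1 (325 to 875, 1.43 ± 0.60) and H2-Eb1 (349 to 1020, 1.55 ± 0.67) were past 2-fold higher. Without the highest library, which lay in BDL day 14, these ratios were 0.64, 0.78 and 0.76, inside the 2-fold line. The fourth higher member, named after its values were seen, was the dendritic cell lectin Cd209a (1.27 to 3.80, 1.58 ± 1.84), at -1.44 without its highest library. Other class II genes were lower, such as H2-Ob (35.1 to 4.20, -3.06 ± 0.89) and H2-DMb2 (33.2 to 11.3, -1.55 ± 0.81), also named after their values were seen, at -2.01 and -0.75 without the highest library. Of the dendritic cell genes, Ccr7, the homing receptor of mature dendritic cells (15 to 0.861, -4.12 ± 1.00), Siglech of plasmacytoid cells (6.65 to 0.424, -3.97 ± 0.86) and Clec9a of cross-presenting cells (7.03 to 0.738, -3.25 ± 1.07) were lower. Without the highest library, of day 0, Siglech stood at -3.08 and Clec9a at -2.20.

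Lysosomal genes were higher together. Of 42 enzymes and membrane proteins, 20 were past 2-fold higher, each over 2 standard errors, none was lower, 36 had ratios above 0 and the median was 0.97. The median against day 0 was already 0.92 on BDL day 3. Summed means were 16144 on day 0, 35896 on BDL day 3 and 35092 on BDL day 14. The spread was small in this list, with a median standard deviation of 0.30 against 0.583 over all members. Ctsd, the aspartic protease cathepsin D, went from 1170 to 4650 (1.99 ± 0.21) and Psap, the precursor of the saposins that help degrade sphingolipids, from 1300 to 4850 (1.90 ± 0.32). Gla, alpha-galactosidase A, went from 8.90 to 67.9 (2.93 ± 0.21) and Gusb, beta-glucuronidase, from 55.2 to 214 (1.95 ± 0.09). Gusb is also in the housekeeping list. Arsa (26.8 to 20, -0.42 ± 0.39), Ctsc (745 to 563, -0.40 ± 0.36) and Grn, progranulin (1140 to 1040, -0.13 ± 0.37), had ratios below 0. The V-ATPase list had a smaller median of 0.54, with 4 of 16 past 2-fold higher and none lower: Atp6v0d2, Atp6v0a1 (16.8 to 50.1), Atp6v1a (43.7 to 129) and Atp6v1c1 (33.6 to 72.1). On BDL day 3 the median of the V-ATPase list was 0.92.

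Cholesterol genes were split. Genes of release, hydrolysis and export were among those past 2-fold higher: Lipa, lysosomal acid lipase (166 to 480, 1.53 ± 0.18), Npc1 (38.9 to 135, 1.80 ± 0.31), Npc2 (463 to 1040, 1.17 ± 0.16), Nceh1, a hydrolase of cholesterol esters (21.8 to 115, 2.40 ± 0.14), and the exporter Abca1 (43.3 to 126, 1.54 ± 0.33). Apoe, the apolipoprotein that macrophages secrete, had the largest gain of all genes in normalized counts, from 7330 to 22500 (1.62 ± 0.28). Of the synthesis genes, those inside or below the 2-fold lines included Hmgcs1 (23.9 to 15.6, -0.62 ± 0.42), Fdft1 (19.4 to 15.8), Sqle (6.55 to 6.84) and Idi1 (18.5 to 9.00, -1.04 ± 0.63). Apoc1 went the other way from its neighbours Apoe and Apoc2, from 1760 through 2260 on BDL day 3 to 161 (-3.45 ± 0.36), while Apoc2 went from 13.1 to 82.9 (2.66 ± 0.51). In all 8 of 21 were past 2-fold higher and 3 lower, with a median of 0.73.

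Targets of the oxidant sensor NRF2 had a median of 0.43, with 5 of 21 past 2-fold higher (23.8%) and 3 lower (14.3%). Among all members these shares were 9.77% and 19.6%. Gsr, glutathione reductase (64.5 to 141, 1.13 ± 0.15), Txnrd1, thioredoxin reductase (31.2 to 63.0, 1.01 ± 0.19), and Pgd of the pentose phosphate pathway (109 to 223, 1.03 ± 0.19) were among the higher. All 3 were higher still on BDL day 3, at 228, 213 and 345. The ferritin chains Ftl1 (6730 to 9040) and Fth1 (2290 to 4420) had ratios of 0.43 and 0.95. Gsta3, a glutathione transferase, and Ephx1, an epoxide hydrolase, were lower (-2.41 ± 0.43 and -1.66 ± 0.14), and so was Me1 (-1.58 ± 0.52). Of 22 glycolysis and hypoxia genes, 5 were past 2-fold higher and 2 lower, with a median of 0.58. Pkm, pyruvate kinase, went from 287 to 912 (1.67 ± 0.30), Pgam1 from 86.1 to 220 (1.35 ± 0.27) and Pfkfb4 from 13 to 42.2 (1.70 ± 0.35), and Hk3, a hexokinase of myeloid cells, from 129 to 49.4 (-1.38 ± 0.41). Ribosomal protein genes had small ratios, with 29 of 30 ratios above 0, 4 past 2-fold and a median of 0.63, which was 0.20 for the 15 housekeeping genes. Of these 15, 11 had ratios above 0, 2 were past 2-fold higher and 1 lower, in a range from -1.02 to 1.95. Eef1a1 went from 5330 to 10300 (0.95 ± 0.21). Actb (-0.48 ± 0.19) and B2m (-0.74 ± 0.13) had ratios below 0, and Ywhaz (0.05 ± 0.14) and Ppia (0.15 ± 0.36) lay near 0.

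The subunits of oxidative phosphorylation parted by genome. All 8 tested that mitochondrial DNA encodes were past 2-fold lower, each over 2 standard errors, and 1 of the other 21, Atp5c1 (96.6 to 203, 1.07 ± 0.28), was past 2-fold higher. Over all 15 genes with the mt- prefix the median was -2.08, and their summed means went from 198888 to 51541. mt-Co1, a subunit of cytochrome oxidase, had the largest loss of all genes in normalized counts, from 79600 to 18700 (-2.09 ± 0.48). Its nuclear partners Cox4i1 (247 to 467) and Cox5a (106 to 72.6) had ratios of 0.92 and -0.55. Without the highest library, which lay in day 0, mt-Nd4 went from -2.21 to -1.55 and mt-Cytb from -2.08 to -1.41. Gm28661 and Gm28437 are nuclear near-copies of mitochondrial genes, and how their reads were divided is uncertain.

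Hepatocyte genes were lower: 26 of 27 were past 2-fold lower, 25 of these over 2 standard errors, with a median of -2.88. For 19 of the 27 the highest library lay in day 0, and without it the list's median was -2.56. Fabp1, the fatty acid carrier of hepatocytes, had the lowest ratio of all named genes. Its mean was 188 on day 0 and 6.00 on BDL day 3, and on BDL day 14 it was at the floor, at least 770-fold lower. Alb, albumin, went from 2440 through 642 to 271 (-3.17 ± 0.35) and Ttr, transthyretin, from 152 to 14.7 (-3.37 ± 0.42). Hnf4a, the nuclear receptor that holds hepatocyte identity, went from 27.8 to 3.74 (-2.89 ± 0.29). G6pc and Pck1, enzymes of gluconeogenesis, went from 3.33 to the floor and from 101 to 14.2 (-2.83 ± 0.43). The exception was Trf, transferrin (804 to 939, 0.22 ± 0.25). Summed means of the list were 6039 on day 0, 2606 on BDL day 3 and 1582 on BDL day 14, and the sort aimed at nonparenchymal cells. Where hepatocyte transcripts in the day 0 libraries come from was not tested.

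Secreted and metabolic liver genes were lower too. Of 26 plasma and complement genes, 22 were past 2-fold lower and 2 higher, with a median of -2.62. The highest library lay in day 0 for 15 of them, and without it the median was -1.91. C2 (104 to 4.15, -4.65 ± 0.47) and C6 (255 to 10.1, -4.66 ± 0.56) had means on BDL day 3 of 97.0 and 409, unlike Serpinc1, antithrombin (45.5, 21.2 and 4.64). C6 is also in the Kupffer cell list. C3, the central complement factor, went from 587 to 139 (-2.08 ± 0.33). The higher members were the coagulation factors F7 (2.84 to 15, 2.40 ± 0.56) and F10 (17.6 to 49.6, 1.49 ± 0.69). For F10, 51.9% of the BDL day 14 sum lay in 1 library, and without it the log2 ratio was 0.85, inside the 2-fold line. Of 29 drug and lipid metabolism genes, 21 were past 2-fold lower and none higher. Their median was -2.41, which was -1.81 without the highest library and -1.11 among genes with a mean of at least 10. Aldh1a1 went from 74.7 to 7.33 (-3.35 ± 0.20). The bile acid genes Slc10a1, the uptake carrier (2.81 to 0.984), Abcb11, the export pump (4.85 to 1.16), and Nr1h4, the bile acid receptor FXR (6.68 to 1.15), were low on day 0 already, and of these Nr1h4 was over 2 standard errors (-2.54 ± 1.06). Genes that most cells use for fat oxidation stayed inside the 2-fold lines, as Acadm (38.0 to 35.8) and Cpt1a (51.3 to 45.4). Among 8 fatty acid and retinol binding proteins, 5 were lower and Fabp5 alone higher, with a median of -1.61 that was -0.64 with no filter on low means.

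Red cell genes had the lowest ratio of summed means of any list. All 8 tested were lower, each by a log2 ratio of -3.77 or below, with a median of -4.10, and their summed means went from 74679 on day 0 (8.09% of all normalized counts) through 7734 on BDL day 3 to 4488 on BDL day 14 (0.611%). Hbb-bs, beta globin, went from 29700 to 1680 (-4.14 ± 1.04), Hba-a2 from 22000 to 1320 (-4.06 ± 0.99) and Alas2, the first enzyme of heme synthesis in red cells, from 920 to 67.6 (-3.77 ± 1.34). The highest library of all 8 lay in day 0 and held a median of 52.1% of the day 0 sum, and without it the list's median was -3.57. Hba-a1 and Hba-a2 are near-identical, so how their reads were divided is uncertain.

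Lymphocyte genes were low on day 0 and lower on BDL day 14. Of 20 T and NK cell genes, 19 were past 2-fold lower (median -3.77), as Cd3g (22.0 to 0.710, -4.95 ± 1.36), Trac (16.6 to 0.476, -5.12 ± 0.94) and Gzma, granzyme A (33.7 to 2.04, -4.05 ± 1.15), and Il7r stayed inside the lines (6.05 to 8.88). Of 15 B cell genes, 14 were lower (median -4.46), as Cd79a (50.6 to 1.55, -5.03 ± 1.35) and Ighm (186 to 34.1, -2.45 ± 0.67). The highest library lay in day 0 for 17 of the T and NK cell genes, with a median of 67.0% of the day 0 sum, and for 13 of the B cell genes, with 62.7%. Without it the medians were -2.89 and -3.62, and Cd3g, Gzma and Ighm stood at -3.67, -3.32 and -1.75. Among genes with a mean of at least 10 the B cell median was -2.61. Summed means went from 299.7 to 37.0 for T and NK cell genes and from 774 to 105 for B cell genes. Of 13 neutrophil genes 10 were lower (median -1.92), among them S100a9 (306 to 80.9, -1.92 ± 0.81) and S100a8 (123 to 37.6, -1.71 ± 0.76). Lcn2, lipocalin 2, was lower with all libraries (82.1 to 39.2, -1.07 ± 0.77) and not without the highest (0.20), and S100a8 was at -1.06 without it.

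Stromal genes were lower on both later days. Of 24 fibroblast and myofibroblast genes, 22 were past 2-fold lower on BDL day 14 and none higher, with a median of -3.18 on that day and -5.34 on BDL day 3, both against the same day 0 libraries. Col1a1, type I collagen, had means of 155, 2.62 and 16.9 on days 0, 3 and 14 (-3.20 ± 1.88 for day 14), Col3a1 422, 4.47 and 32.3 (-3.71 ± 1.03) and Acta2, smooth muscle actin, 228, 3.86 and 19.7 (-3.53 ± 1.27). Thy1, a marker of portal fibroblasts and T cells, went from 29.8 through 7.06 to 4.01 (-2.89 ± 0.70). Sparc (386 to 271) and Timp1 (6.40 to 4.30) stayed inside the lines. Of 12 stellate cell genes 9 were lower, with a median of -2.31 that was -0.51 among genes with a mean of at least 10. The lower included Lrat, which esterifies retinol (6.14 to the floor), and Des, desmin (25.2 to 1.12, -4.49 ± 1.10). Hgf, hepatocyte growth factor, was higher (3.73 to 22.1, 2.57 ± 1.03). For 22 of the 24 fibroblast genes the highest library lay in day 0, with a median of 49.0% of the day 0 sum. Without it the median of the fibroblast list on BDL day 14 was -2.93. Sinusoidal endothelial genes had a median of 0.05, with 2 of 20 past 2-fold each way, after a median of -1.88 on BDL day 3. That is 10.0% each way, where all members had 9.77% higher and 19.6% lower. Fcgr2b (185 to 603, 1.70 ± 0.41) and Stab1 (176 to 420, 1.25 ± 0.51) were higher and Vwf (68.2 to 14.4, -2.24 ± 1.03) and Cdh5 (207 to 81.5, -1.34 ± 0.69) lower. Cdh5 is also in the Kupffer cell list. Without its highest library, of BDL day 14, Stab1 was at 0.91, inside the line. Stab2 (178 to 113), Kdr (101 to 133) and Pecam1 (114 to 112) stayed inside the lines.

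Interferon-stimulated genes were lower: 24 of 30 were past 2-fold lower, 22 of these over 2 standard errors, none had a ratio above 0 and the median was -1.67. Oas2, an enzyme that senses viral RNA, went from 87.7 to 6.85 (-3.68 ± 0.39; -2.97 without its highest library) and Irf7, the factor that drives type I interferon, from 473 through 475 on BDL day 3 to 64.7 (-2.87 ± 0.28). Isg15 (73.0 to 13.2, -2.47 ± 0.86) and Ifi44 (18.4 to 1.60, -3.52 ± 0.82) were lower as well, and Irf9 (48.8 to 40.2) and Ifi207 (132 to 108) stayed inside the lines. Heat shock and immediate early genes had a median of -0.88, with 11 of 27 past 2-fold lower and 1 higher. Hspa1a (324 to 15.5, -4.39 ± 0.49) and Hspa1b (274 to 10.3, -4.73 ± 0.74), near-identical copies of the inducible HSP70 between which reads may be split, stood well below the constitutive Hspa8 (2020 to 1750, -0.21 ± 0.38) in ratio. Fosb went from 88.1 to 11.5 (-2.94 ± 0.60), while Fos (-0.79 ± 0.58), Jun (-0.54 ± 0.44) and Egr1 (-0.35 ± 0.53) stayed inside the lines. This list is also induced by tissue handling, and its part in other results was not tested.

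Chemokine genes had a median of 0.05 that hid a wide split, with 11 of 31 past 2-fold higher and 10 lower. Ligands made by macrophages were among the higher, as Ccl9 (48.5 to 381, 2.97 ± 0.56), Ccl6 (314 to 968, 1.62 ± 0.41), Pf4 (37.2 to 221, 2.57 ± 0.44) and Cxcl14 (6.70 to 40.1, 2.58 ± 0.58). Cxcl13, which attracts B cells, went from 229 through 145 to 4.40 (-5.70 ± 0.69), Cxcl12 from 57.8 to 4.95 (-3.55 ± 0.72) and Cxcl2, which attracts neutrophils, from 136 to 24.1 (-2.50 ± 0.51). Of 24 cytokines and receptors 6 were lower and 1 higher, with a median of -0.37. Il10, which restrains inflammation, went from 43.3 through 9.93 to 2.5 (-4.11 ± 0.99), and its receptor chains Il10ra (79.6 to 95.1) and Il10rb (202 to 215) stayed inside the lines. Il1b went from 296 to 138 (-1.10 ± 0.60), and Tnf from 15.7 to 11.9 (-0.40 ± 0.48).

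In the TGF-beta pathway 3 of 25 were past 2-fold higher and 8 lower, with a median of 0.27. Of the ligands, Tgfb1 went from 73.4 to 90.2 (0.30 ± 0.67) and Tgfb3 from 10.7 to 2.93 (-1.87 ± 0.52). Of the receptors, Tgfbr1 went from 25.4 to 89.4 (1.82 ± 0.22) and Tgfbr2 from 73.6 to 140 (0.93 ± 0.31). Thbs1, thrombospondin 1, which frees the latent ligand, went from 10.7 to 89.3 (3.06 ± 0.74), and the binding protein Ltbp1 from 14.6 to 0.544 (-4.75 ± 1.15). The list members Id1 (103 to 37.0, -1.48 ± 0.44), Id3 (287 to 101, -1.51 ± 0.30) and Smad7 (13.8 to 5.93, -1.22 ± 0.54) were lower. Id3 is also in the Kupffer cell list. Among 20 matrix proteases and inhibitors 6 were higher and 6 lower, with a median of 0.08. Mmp7, matrilysin (chr9:7692090-7699585), went from 1.01 through 3.87 to 18.6 (4.20 ± 1.11), of which 60.6% came from 1 library, and without it the log2 ratio was 3.27. Mmp14 (35.6 to 96.7, 1.44 ± 0.53), Plaur, the urokinase receptor (8.80 to 54.2, 2.62 ± 0.46), and Adam8 (9.09 to 67.1, 2.88 ± 0.53) were higher, and Mmp2 (26.5 to 6.26, -2.08 ± 0.95) and Mmp3 (5.25 to 0.713, -2.88 ± 1.38) lower, the last at -2.13 without its highest library. Notch2 went from 20.7 through 29.5 to 40.9 (0.98 ± 0.20).

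S100 proteins, annexins and galectins had 7 of 20 past 2-fold higher and 3 lower, with a median of 0.50. S100a4 (18.3 to 214, 3.55 ± 0.79), Lgals1 (97.5 to 550, 2.5 ± 0.43), Lgals3 (356 to 1430, 2.01 ± 0.20) and Anxa4 (66.9 to 157, 1.23 ± 0.09) were higher, the last with the smallest error of the list. Without its highest library S100a4 was at 2.58. Cell cycle genes stayed near 0, with 3 of 29 higher and 2 lower, 1 of these 5 over 2 standard errors and a median of 0.18. Mki67 went from 12.3 to 12.9 (0.07 ± 0.72), Pcna from 88.4 to 102 (0.21 ± 0.38) and Ube2c from 8.36 to 1.90 (-2.14 ± 0.68). Of the 5 sex-linked genes, Xist, expressed from the inactive X of females, went from 143 to 28.3 (-2.34 ± 4.41, and -1.20 without its highest library) and the Y-linked Ddx3y from 7.73 to 19.1 (1.31 ± 3.15). Their part in other results was not tested.

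Families were also taken by the start of their symbols, chosen after values were seen. All 9 major urinary protein (Mup) genes were past 2-fold lower, and their summed means were 197 on day 0 and 4.09 on BDL day 14. On BDL day 14, 8 of the 9 were at the floor, and with these taken at their bound the median log2 ratio was -4.90. For 8 of them the highest library lay in day 0 and held a median of 91.6% of the day 0 sum, and without it the median of the fitted ratios was -3.46. Reads of these near-identical copies may be split. Of 43 cytochrome P450 (Cyp) genes 26 were lower and 3 higher, and of 15 Serpina genes 12 were lower and 2 higher. Of 15 NK receptor (Klr) genes 13 were lower, of 9 guanylate binding protein (Gbp) genes 7, and of 25 collagen chains 18. The Cd300 receptors of myeloid cells had 5 of 10 past 2-fold higher, 2 lower and a median of 0.88. By gene type, processed pseudogenes were more often higher than lower (25.7% and 5.26% of 304), where protein-coding genes had 9.14% and 19.2% of 12071. Reads of a processed pseudogene may come from its parent gene.

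The 15 highest ratios among genes with at least 10 normalized counts held several myeloid genes outside the lists. Dpep2, a dipeptidase, went from 1.85 to 85.6 (5.53 ± 1.08), Sh2d1b1 from 0.808 to 31.6 (5.29 ± 0.85), Ms4a4a from 2.39 to 64.9 (4.76 ± 0.72) and Clec5a, a lectin that signals through DAP12, from 1.78 to 33.8 (4.25 ± 0.62). Gpr141 was at the floor on day 0 and at 15.6 on BDL day 14, at least 30.5-fold higher. Myo5a, a motor of organelle transport, went from 3.75 to 89.6 (4.58 ± 0.48) and Gdf3, a ligand of the TGF-beta family, from 0.860 to 18.3 (4.41 ± 0.58). Mcub, the inhibitory subunit of the mitochondrial calcium uniporter, went from 1.32 to 34.6 (4.71 ± 0.42). The lowest 15 were mainly hepatocyte genes. Mup3, Mup22 and Sult2a8 were at the floor on BDL day 14. Mup22 and Sult2a8 were at least 230-fold and 148-fold lower than on day 0. For Mup3 76.9% of the day 0 sum lay in 1 library, and the day 0 mean was 70.2 with it and 24.3 without it. Gbp2b, an interferon-induced GTPase, was at least 115-fold lower (28.1 on day 0).

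Genes outside the lists with a small error for the size of their ratio were chosen after their values were seen. Higher among them were Rab7, the GTPase of late endosomes (156 to 379, 1.28 ± 0.12), Tlr13, a sensor of bacterial ribosomal RNA (50.8 to 228, 2.17 ± 0.19), Cd84 (93.5 to 274, 1.55 ± 0.12), Sgpl1, which degrades sphingosine phosphate (66.0 to 244, 1.89 ± 0.18), and Eps8 (3.18 to 33.0, 3.38 ± 0.28). Lower were Cfp, properdin of the complement system (1790 to 596, -1.59 ± 0.12), Fcna, a ficolin (1630 to 217, -2.91 ± 0.30), Cd209f (38.0 to 0.368, -6.69 ± 0.52), and the MHC class I gene H2-K1 (1270 to 508, -1.32 ± 0.11). On BDL day 3, Cfp and Fcna stood at 2780 and 2930, above both other days.

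Single libraries carried some of the ratios. The highest library of a gene could be placed in its group for 442 of the 1259 higher genes, and without it 308 of these (69.7%) were still past 2-fold. The ratio changed sign for 16 of the 442. It could be placed for 1323 of the 2522 lower genes, and without it 1065 (80.5%) were still past 2-fold and 57 changed sign. For 6 genes past 2-fold with at least 10 normalized counts, over 90% of a group came from 1 library. Saa2 and Saa1, acute-phase proteins of hepatocytes, had 99.9% and 99.3% of their day 0 sums in 1 library, and without it their log2 ratios were 2.18 and 0.12 in place of -6.83 and -6.41. Mup7, Mup14 and Ighg2b were also carried by 1 day 0 library, and Rnase2a by 1 library of BDL day 14 (98.8% of its sum). Without that library the log2 ratio of Rnase2a was -1.75 in place of 4.16.

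**Figure D5:**
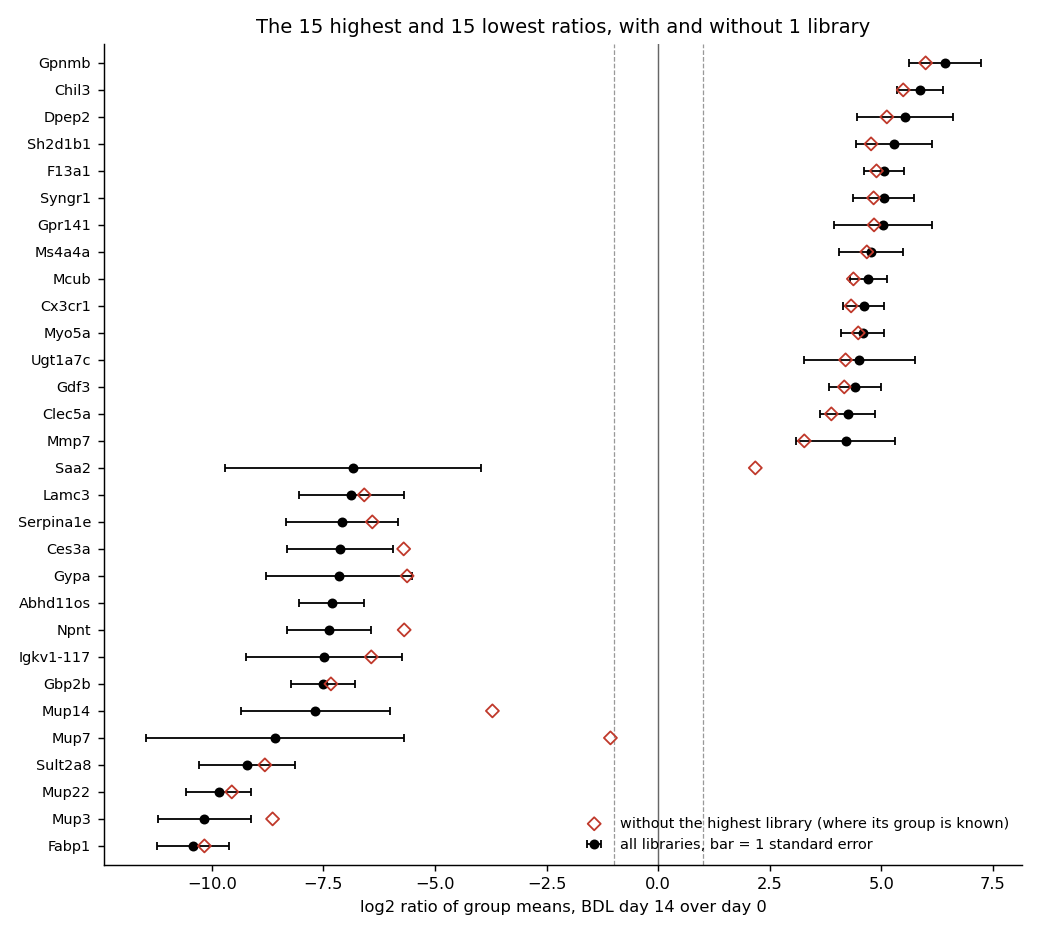
The 15 highest and 15 lowest log2 ratios of group means among genes with at least 10 normalized counts in the higher group, with all libraries (black, bar of 1 standard error) and without the highest library where its group is known (red). The higher genes stay above 3.2, while Mup7 and Saa2 move to -1.07 and 2.18.

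At the edges of the rules, Aif1l, Gca and Socs1 had a mean of exactly 1 and were members, and Tmem86b (0.999) and Egln3 (0.998) were not. Just past 2-fold higher lay Fam168b (41.4 to 82.9) and Haus2 (6.59 to 13.2), and just short of it Clns1a (23.2 to 46.3) and Mcam (28.1 to 56.1). Just past 2-fold lower lay Cd163, the hemoglobin scavenger receptor (413 to 206), and Klf7 (12.8 to 6.38), and just short of it Clec1b (224 to 112) and Ly96 (10.0 to 5.00).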

How the data were processed

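Per the labels, polyadenylated RNA of sorted cells was made into Truseq libraries and sequenced on an Illumina NextSeq. The authors aligned reads to mm10 with STAR (2.6.1d per the submitters' processing notes), counted them on GENCODE M18 genes and normalized the counts by upper quartile in Partek. Their deposited table holds signal values, the least squares mean of normalized counts for each group, and the arithmetic mean, geometric mean and maximum over 10 libraries. It also holds the authors' own p-values, FDR, ratios, fold changes and limits, which were not used. The table has 0 columns for a library, which leaves the depth of each unknown and the counting error not given.

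Group sizes of 3, 3 and 4 are those for which the weighted group means return the arithmetic mean. The study counts each library as a mouse and left out 2 of BDL day 14 for low reads, which are not named. Ratios were computed without a pseudocount, in Python 3.11.15 with numpy 2.4.6 and pandas 2.3.3. The highest library was assigned to a group only if no other group's sum could contain it. Exon lengths and coordinates are of GENCODE M21 (99.9% of 16950 symbols at the same place). Named genes were the 15 highest and 15 lowest ratios, the 10 largest gains and losses, up to 4 per list at each end, 16 genes of the study's questions and those at the edges. Members and the 34 lists were chosen with earlier results of these data known. Scripts were tested on simulated data. Date-like symbols (21) were kept as written. Some genes of the lists are not reported here by name.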

Additional observations from a re-analysis of the deposited data

How the results depend on the processing

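The counts of genes past 2-fold, 1259 higher and 2522 lower, depended on the level of the genes and on the scaling. Quantile normalization gave 1933 higher genes. With no filter on low means there were 2094 higher and 4247 lower, and with a mean of at least 10 there were 665 and 732. At a 1.5-fold line 2729 genes were higher, and at a 4-fold line 260 were higher and 1192 lower. With a pseudocount of 1, median-ratio scaling, the highest library left out, or the 3 liver lists and the 10 highest genes left out, both counts stayed within 1.5 times. Asking also for 2 standard errors, a condition chosen after seeing the data, gave 894 and 1718.

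Of 34 list medians, those that moved by more than the spread were monocyte-derived macrophage (2.89 after quantile normalization), drug and lipid metabolism (-1.66 after it, -1.44 with a pseudocount and -1.11 with a mean of at least 10), MHC class II and dendritic cell (0.71), B cell (-2.61) and stellate cell (-0.51) with a mean of at least 10, and fatty acid binding proteins (-0.64 with no filter). The MHC class II list thereby changed sign, since fewer genes were tested. Of the 293 genes that the naming rule gave, 3 reversed, all without their highest library: Saa2 (2.18), Saa1 (0.12) and Lcn2 (0.20). Among all genes past 2-fold, 16 higher and 57 lower genes changed sign in this way. No paired analysis was possible because the table holds no column per library, and for the same reason no library other than the highest could be left out. Depth is unknown, so low means carry the least weight.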
